A study of Mus musculus with 4 samples.

Results

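The genes described here are 9 cadherins of the neuroepithelium (Cdh2, Cdh3, Cdh4, Cdh6, Cdh7, Cdh8, Cdh11, Cdh13 and Cdh20), taken by symbol from a deposited table of 55426 rows. All 9 were found, each in 1 row. E-cadherin (Cdh1) was left out by the rule that chose them and is given below only beside its neighbour Cdh3. Their levels were compared between 2 untreated and 2 doxycycline (Dox) libraries of poly(A)-selected RNA from mouse retinal organoids at day 6. By the labels, every library came from a single Mettl3 knockout line that carries an Rx:GFP reporter and a Dox-inducible, HA-tagged METTL3, grown in medium with 5% KSR and AGN at 0.1 µM. METTL3 is the catalytic subunit of the enzyme that writes N6-methyladenosine on RNA. The Dox group received 2 µg/ml for 6 days, and the labels give the untreated group the same knockout and inducible construct. The titles read EV and EV+Dox, an abbreviation the labels leave unexplained, and whether METTL3 was induced is not settled by the sources used here, so each difference below is one with and without Dox. The sources used here do not name the promoter of the construct or say whether replicates were separate cultures. The limma p-values therefore rest on variation among these libraries, pooled over genes, and may not cover variation between cultures.

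Classical cadherins are single-pass membrane proteins that hold neighbouring cells together in the presence of calcium. Their outermost extracellular domain docks into that of a cadherin on the next cell, and their cytoplasmic tail binds β-catenin and p120-catenin, which link the junction to actin. Type I cadherins such as N-cadherin insert a single tryptophan into the partner, and type II cadherins insert a pair of them. In the early neural tube and optic vesicle, N-cadherin holds the apical junction belt, while type II cadherins are expressed in patches that often follow regional boundaries. T-cadherin (Cdh13) shares the extracellular domains but is tied to the membrane by a lipid anchor and has no cytoplasmic tail, so it is classical by sequence only.

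The letters that separate these classes are shown first, because the members that changed came from both. Each line gives 4 codons up to the propeptide cleavage site and the first 14 codons of the mature protein, read 5′ to 3′ from the GENCODE M21 transcript with the longest coding sequence. Capitals mark tryptophan codons among the first 4 of the mature protein.
Cdh3: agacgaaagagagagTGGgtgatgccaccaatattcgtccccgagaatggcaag
Cdh4: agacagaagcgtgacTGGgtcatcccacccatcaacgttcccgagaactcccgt
Cdh6: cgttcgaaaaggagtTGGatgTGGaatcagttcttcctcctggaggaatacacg
Cdh7: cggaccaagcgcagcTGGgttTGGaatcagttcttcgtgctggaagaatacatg
Cdh8: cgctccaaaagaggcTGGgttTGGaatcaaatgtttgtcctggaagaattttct
Cdh11: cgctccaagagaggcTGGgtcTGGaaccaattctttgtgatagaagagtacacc
Cdh20: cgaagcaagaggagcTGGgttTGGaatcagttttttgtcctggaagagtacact
Cdh13: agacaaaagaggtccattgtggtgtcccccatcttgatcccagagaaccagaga

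Cdh3 and Cdh4 hold 1 tryptophan codon there, the type I pattern, and Cdh2, whose letters are not printed, holds 1 as well. Cdh6, Cdh7, Cdh8, Cdh11 and Cdh20 hold 2, the type II pattern, and Cdh13 holds 0. Over these 54 bases, type II members were identical to each other at 66.7% to 81.5% of positions (10 pairs). Cdh3 and Cdh4 matched the type II members at 38.9% to 50% (10 pairs). In GRCm38 the stretches lie in coding exons on chr8:106536606-106536659 (Cdh3, plus strand), chr2:179797548-179797601 (Cdh4, plus), chr15:13091677-13091730 (Cdh6, minus) and chr1:109994309-109994362 (Cdh7, plus). Those of the others are chr8:99400753-99400806 (Cdh8, minus), chr8:102679639-102679692 (Cdh11, minus), chr1:104934262-104934315 (Cdh20, plus) and chr8:118757404-118757457 (Cdh13, plus).

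The cadherin mRNA pool changed its leading member between the groups. Cdh2 was the most abundant member without Dox and Cdh11 with Dox. Cdh11, Cdh6, Cdh20, Cdh3 and Cdh13 rose, Cdh8 and Cdh4 fell, and Cdh2 and Cdh7 were lower with Dox without passing or entering the test. Over all 13931 tested genes, 9.31% were called at an adjusted p below 0.05 (limma on log2(FPKM + 1), Benjamini-Hochberg), 4.44% higher and 4.87% lower with Dox. Of the 9 members, 8 reached the mean of 1 FPKM required for testing, and 5 were called higher and 2 lower. Cdh3 and Cdh20 reached that mean only through the Dox libraries. Without the filter, which put all 9 in the test, 3 were called higher (Cdh11, Cdh6 and Cdh20) and 2 lower (Cdh8 and Cdh4), where 2.71% of all genes were called. In each of the 9 members the Dox and untreated libraries did not overlap, which held for 53.4% of all tested genes. For a single gene, 2 libraries against 2 allow no exact permutation p below 0.333, so each call depends on the variance that limma pools over genes.

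**Figure D1:**
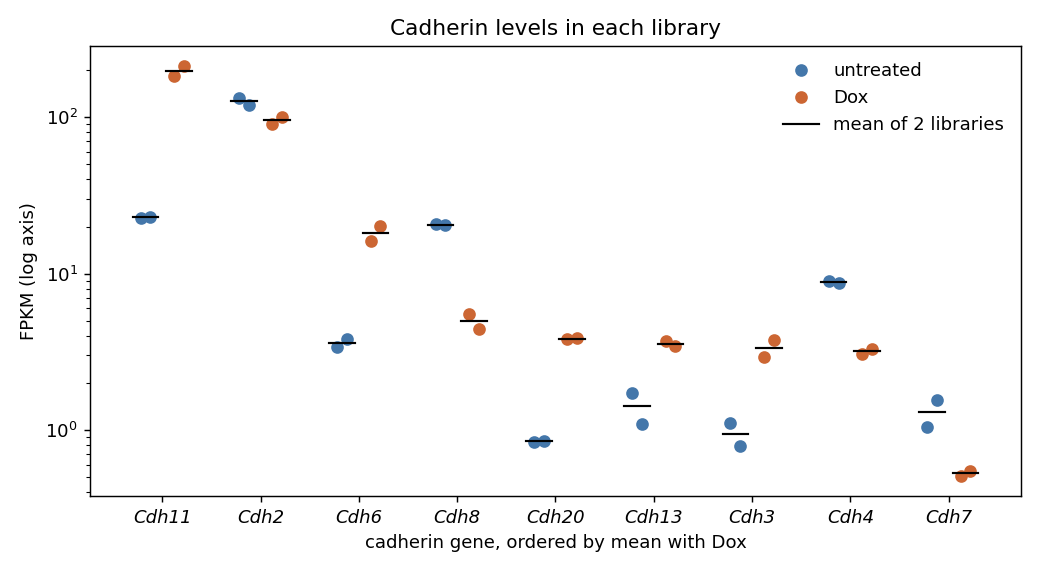
FPKM of each cadherin in each library (log axis); blue points are the 2 untreated and orange points the 2 Dox libraries, and black bars are group means. Cdh11 stands near 23 FPKM without Dox and at 184.41 and 211.3 FPKM with it, above Cdh2.

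Read steps in the low values gave a depth of 31700000 to 34900000 fragments per library. Markers of the labelled tissue were near 0 without Dox: Rax, the gene behind the reporter, was at 1.12 and 0.82 FPKM untreated and at 201.14 and 227.98 FPKM with Dox, and Six6 had 0.01 FPKM in each untreated library. Mettl3 itself was at 40.33 and 37.98 FPKM without Dox and at 45.2 and 46.37 FPKM with it (log2 fold change 0.22, adjusted p = 0.122 in limma), a gene-level value that cannot tell the knocked-out locus from the inducible copy. These are bulk samples, in which fewer cells of a type and less RNA per cell cannot be told apart.

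Among the type I members, Cdh2 (N-cadherin, the main junctional cadherin of neuroepithelium) was listed at 133.06 and 120.05 FPKM without Dox and at 90.72 and 101.04 FPKM with it. Both Dox libraries were below both untreated libraries. The means were 126.6 ± 9.20 and 95.9 ± 7.30 FPKM (SD, n = 2 each). The log2 fold change was -0.40, with a 95% interval of -0.62 to -0.18. It missed the threshold (adjusted p = 0.0529 in limma). It passed after median centring (0.0433) and with robust estimation (0.0377), and over 14 alternative fits the adjusted p ran from 0.0377 to 0.261.

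Cdh4 (R-cadherin, first described in retina) was at 9.01 and 8.65 FPKM without Dox and at 3.05 and 3.31 FPKM with Dox. The replicates lay close together and the groups far apart. Cdh4 fell, 2.78-fold on the FPKM means, and its log2 fold change was -1.23 ± 0.101 (SE, adjusted p = 0.00162 in limma).

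Cdh3 (P-cadherin, known from placenta and from the pigment epithelium of the eye) went the other way from a low level, 1.11 and 0.79 FPKM untreated against 2.93 and 3.77 FPKM with Dox. As Cdh3 has 1 annotated transcript, these values could be turned into about 149, 114, 385 and 511 fragments. Cdh3 rose 3.53-fold on the FPKM means (log2 fold change 1.16, SE 0.162, adjusted p = 0.0113 in limma). The call was lost without untreated replicate 2 (adjusted p = 0.0566), without Dox replicate 2 (0.0822) and without the filter (0.0832). The neighbouring gene Cdh1 (E-cadherin, 46.1 kb downstream on chromosome 8) was at 5.82 and 5.57 FPKM without Dox and at 4.79 and 4.1 FPKM with it, with a log2 fold change of -0.30 that did not pass (adjusted p = 0.186 in limma).

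Among the type II members, Cdh11 (OB-cadherin, first described in bone-forming cells and widely expressed in mesenchyme) had the largest change of the 9. Its untreated libraries had 22.79 and 23.13 FPKM, and its Dox libraries 184.41 and 211.3 FPKM. The untreated replicates nearly coincided, and the lower Dox library was 7.97 times the higher untreated one. Cdh11 rose 8.62-fold on the means, and the log2 fold change was 3.05 ± 0.0845 (SE, 95% interval 2.84 to 3.26, adjusted p = 6.96e-05 in limma). It ranked 33 of 13931 tested genes from the highest fold change.

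Cdh6 (K-cadherin, known from kidney epithelium and the neural crest) was at 3.42 and 3.82 FPKM without Dox and at 16.23 and 20.18 FPKM with it. Cdh6 rose 5.03-fold, or by 2.05 ± 0.130 on the log2 scale (SE, adjusted p = 7.01e-04 in limma). Cdh20, a type II cadherin of the neural tube, was at 0.84 and 0.85 FPKM without Dox, about 103 and 112 fragments. With Dox it was at 3.81 and 3.87 FPKM, about 456 and 477 fragments. Replicates nearly coincided in both groups, and Cdh20 rose 4.54-fold on the means (log2 fold change 1.39, SE 0.118, adjusted p = 0.00185 in limma).

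Cdh8, a type II cadherin of forebrain regions and synapses, had the largest decrease. It was at 20.7 and 20.31 FPKM without Dox, close to the level of Cdh11 there, and at 5.5 and 4.41 FPKM with Dox. Cdh8 fell 4.14-fold on the means, and the log2 fold change was -1.86 ± 0.114 (SE, adjusted p = 6.43e-04 in limma). Cdh7, known from migrating neural crest and developing neurons, was at 1.05 and 1.56 FPKM without Dox and at 0.51 and 0.55 FPKM with it. Its mean of 0.917 FPKM over the 4 libraries kept it out of the test. In the fit with no filter its log2 fold change of -0.58 did not pass (95% interval -1.0 to -0.17, adjusted p = 0.18 in limma).

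Cdh13, the lipid-anchored member, was at 1.73 and 1.1 FPKM without Dox and at 3.69 and 3.43 FPKM with it. The untreated replicates differed more, relative to their mean, than the Dox replicates. Cdh13 rose 2.52-fold on the means (log2 fold change 0.93, SE 0.163, adjusted p = 0.025 in limma). The call was lost without untreated replicate 2 (adjusted p = 0.0835), Dox replicate 1 (0.138) or Dox replicate 2 (0.135), and without the filter (0.126).

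**Figure D2:**
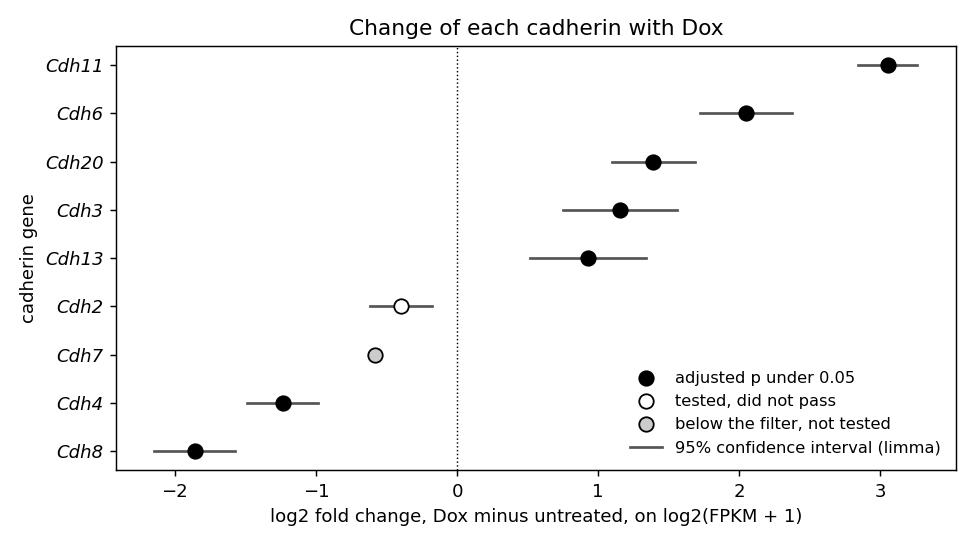
Log2 fold change of each cadherin (Dox minus untreated, on log2(FPKM + 1)) with limma's 95% confidence interval; filled points passed an adjusted p of 0.05, the open point did not, and the grey point was below the filter. The values run from -1.86 for Cdh8 to 3.05 for Cdh11, and only the interval of Cdh2 belongs to a tested member that missed the threshold.

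FPKM is scaled to transcript length, so levels of different members can be set side by side. Without Dox the order of the mean FPKM was Cdh2, Cdh11, Cdh8, Cdh4, Cdh6, Cdh13, Cdh7, Cdh3 and Cdh20. In that order the libraries of Cdh13 and Cdh7, of Cdh7 and Cdh3, and of Cdh3 and Cdh20 overlapped, while those of the other neighbours did not. With Dox the order was Cdh11, Cdh2, Cdh6, Cdh8, Cdh20, Cdh13, Cdh3, Cdh4 and Cdh7. Here only Cdh13 overlapped with Cdh3, and Cdh3 with Cdh4.

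Summed over the 9 members, cadherin mRNA came to 193.71 and 180.26 FPKM without Dox and to 310.85 and 351.86 FPKM with Dox. The mean was 1.77 times higher with Dox (exact permutation p = 0.333, two-sided, the smallest this design allows). Without Cdh11 the sum went the other way, from 164.0 ± 9.75 to 133.5 ± 9.98 FPKM (SD, n = 2 each; exact permutation p = 0.333). The 3 type I members summed to 136.3 ± 9.68 FPKM without Dox and to 102.4 ± 8.08 FPKM with it. The 5 type II members summed to 49.2 ± 0.615 and 225.4 ± 21.1 FPKM.

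The share of Cdh2 in the summed FPKM was 68.7% and 66.6% without Dox and 29.2% and 28.7% with it. The share of Cdh11 was 11.8% and 12.8% without Dox and 59.3% and 60.1% with Dox. Cdh8 went from 10.98% ± 0.411 to 1.51% ± 0.365 of the sum, and Cdh6 from 1.94% ± 0.250 to 5.48% ± 0.364 (SD, n = 2 each). The ratio of Cdh11 to Cdh2 was 0.171 and 0.193 in the untreated libraries and 2.03 and 2.09 in the Dox libraries. The groups did not overlap in any of these shares, and each exact permutation p was 0.333.

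**Figure D3:**
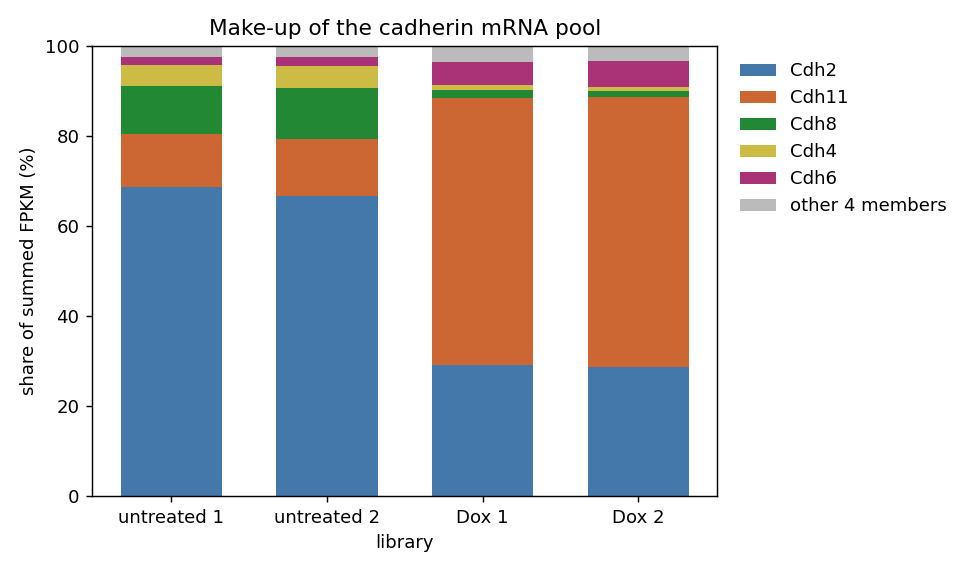
Share of each cadherin in the summed FPKM of the 9 members (percent, stacked to 100) in each library. Cdh2 is the largest block in the untreated libraries (68.7% and 66.6%) and Cdh11 in the Dox libraries (59.3% and 60.1%).

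On chromosome 8, Cdh8 (chr8:99024471-99416471, minus strand) and Cdh11 (chr8:102632095-102785642, minus strand) are adjacent cadherin genes with 3.22 Mb between them, and Cdh8 fell while Cdh11 rose. On chromosome 1, Cdh20 (chr1:104768529-104995481) rose, and Cdh7 (chr1:109982431-110140157), 4.99 Mb away, was lower with Dox without being tested. Cdh13 (chr8:118283733-119324921) spans 1041.2 kb, the longest of the members. Exons of Cdh8 share 23 bases with Gm15679 on the opposite strand, and those of the other 8 overlap no annotated gene.

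The GGACT letters, the commonest core of the m6A consensus, were counted in the sense sequence of each member's longest protein-coding transcript. Members held 5 to 8 matches. The density was lowest in Cdh6 (0.735 per kb) and Cdh11 (0.885 per kb) and highest in Cdh20 (1.99 per kb), while the median over 11629 tested genes was 1.05 per kb. Members that rose thus stood at both ends, and Cdh8 and Cdh4, which fell, had 1.52 and 0.939 per kb. These are letter counts in annotated transcripts, and methylation was not measured in these files.

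Profiles most like those of the members at both ends were sought over the 4 libraries, as the distance between log2(FPKM + 1) values centred on each gene's mean. Nearest to Cdh11 were Dkk3 (distance 0.106), the pigment-cell enzyme gene Dct (0.133; also on the pigment epithelium list below) and Fgf15 (0.189). Dct was at 0.09 and 0.14 FPKM without Dox and at 8.43 and 8.58 FPKM with it. Its likeness to Cdh11 depends on the value added before the logarithm. With 0.1 in place of 1, the log2 fold changes were 5.33 for Dct and 3.10 for Cdh11. Dkk3 was at 1.56 and 1.5 FPKM without Dox and at 17.04 and 20.46 FPKM with it. Nearest to Cdh8 were Sst (0.0549), the tubulin gene Tubb2b (0.0968) and Ajap1 (0.143). Sst was at 3.72 and 3.68 FPKM without Dox and at 0.39 and 0.13 FPKM with it. Ajap1 was at 4.7 and 4.89 FPKM without Dox and at 0.85 and 0.63 FPKM with it. Sst and Ajap1 averaged below 1 FPKM with Dox and entered the test only through the untreated libraries. Tubb2b was at 486.98 and 480.37 FPKM without Dox and at 135.2 and 122.31 FPKM with it. Each distance rests on 4 points in 2 groups and on a scale that understates changes of low genes.

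The 10 other classical cadherins on the list were mostly low. Of these, 4 were tested, 0 were higher and 1 was lower, and the median log2 fold change of the 4 was -0.35, against -0.0042 over all tested genes. With no filter that median was -0.067 and 2 were lower, Cdh19 (0.37 and 0.44 against 0.07 and 0.04 FPKM) being the added one. Without the trend in eBayes 2 were lower as well, and at a minimum of 5 FPKM, which Cdh22 does not reach, 0 were lower. Cdh22, a type II cadherin of brain, fell from 4.63 and 3.91 FPKM to 0.98 and 1.03 FPKM (log2 fold change -1.39, adjusted p = 0.00262 in limma). Cdh24 had 10.46 and 11.17 FPKM without Dox and 9.41 and 11.34 FPKM with it, and its groups overlapped.

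The cytoplasmic partners of cadherins gave 1 call, near the share over all tested genes, of which 9.31% were called. Of the 13 catenins and related genes, 12 were tested, 1 was higher and 0 were lower, with a median log2 fold change of 0.065. β-catenin (Ctnnb1) was at 462.96 and 445.92 FPKM without Dox and at 455.54 and 431.98 FPKM with it, and αE-catenin (Ctnna1) at 102.23 and 94.21 against 100.41 and 104.56 FPKM. The groups overlapped for both, and for p120-catenin (Ctnnd1). The gene that rose was Ctnnbip1, whose product ICAT keeps β-catenin from TCF factors and is not part of the junction. It went from 32.2 and 27.61 FPKM to 55.45 and 55.4 FPKM (log2 fold change 0.87, adjusted p = 0.00368 in limma), and its exons overlap a gene on the opposite strand. The call was lost without Dox replicate 1 (adjusted p = 0.0512) and without Dox replicate 2 (0.0540).

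Of the 19 nectin and apical junction genes, 17 were tested, 1 was higher and 3 were lower, with a median log2 fold change of -0.040. Nectin2, an immunoglobulin-type adhesion receptor, rose from 49.09 and 48.62 FPKM to 76.67 and 80.02 FPKM (log2 fold change 0.67, adjusted p = 0.00273 in limma). Fat4, a giant cadherin of planar polarity, fell with a log2 fold change of -1.04 (adjusted p = 0.00814). It entered the test only through the untreated libraries (2.96 and 2.61 against 0.77 and 0.92 FPKM). Crb2, an apical polarity protein, fell with -0.86 (0.0201), and Shroom3, which drives apical constriction, with -0.67 (0.0434). Leaving out 1 library ended the call of Fat4 (without Dox replicate 1, adjusted p = 0.0587), of Crb2 (without either untreated replicate or Dox replicate 1, 0.0610 to 0.122) and of Shroom3 (without any library, 0.0588 to 0.189). With no filter the adjusted p was 0.0553 for Fat4, 0.117 for Crb2 and 0.168 for Shroom3, and after rescaling to TPM it was 0.0691 for Shroom3. Exons of Nectin2, Fat4, Crb2 and Shroom3 overlap genes on the opposite strand.

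**Figure D4:**
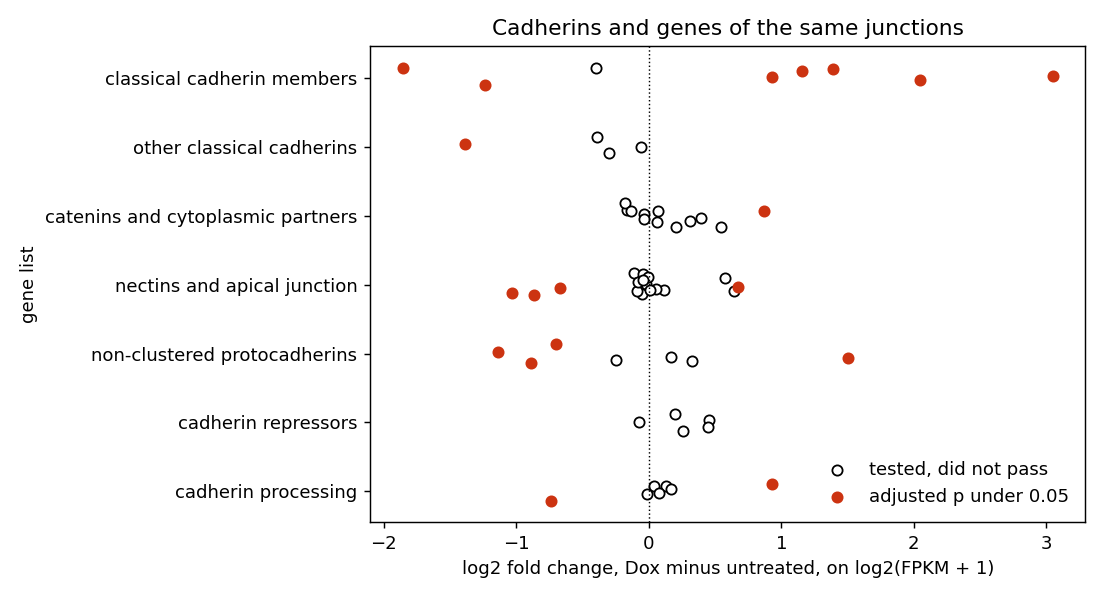
Log2 fold change (Dox minus untreated, on log2(FPKM + 1)) of every tested gene of the cadherin members and of 6 further lists; red points passed an adjusted p of 0.05 and open points did not. The members spread from -1.86 to 3.05. Of the 12 tested catenins and partners 11 are open points, near the share over all tested genes, of which 9.31% were called.

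Of 12 non-clustered protocadherins, 7 were tested, 1 was higher and 3 were lower, with a median log2 fold change of -0.25. Pcdh7 rose (log2 fold change 1.5, adjusted p = 0.00192 in limma), and its exons overlap a gene on the opposite strand. Pcdh10 (-1.14, 0.00747), Pcdh18 (-0.89, 0.00129) and Pcdh19 (-0.70, 0.0143) fell. Pcdh10 entered the test only through the untreated libraries (2.41 and 2.24 against 0.41 and 0.62 FPKM). The call of Pcdh19 was lost without any of the 4 libraries (adjusted p 0.0718 to 0.101 in limma) and with no filter (0.0741). The median of this list was 0.0 with no filter, where all 12 entered, and -0.89 at a minimum of 5 FPKM. Exons of Pcdh10 and Pcdh19 also overlap genes on the opposite strand. Of the 7 genes for Snail, Zeb and Twist factors, known repressors of Cdh1, 5 were tested, 0 passed in either direction, and the median was 0.26. Snai2 (1.5 and 1.53 against 2.62 and 2.27 FPKM) and Twist1 (2.57 and 2.34 against 3.95 and 3.46 FPKM) did not pass. Their adjusted p was 0.0966 and 0.0914 in limma. Of the 7 genes for proteases that process cadherins, all were tested, 1 was higher and 1 lower, with a median of 0.073. Mmp14, a membrane-bound metalloprotease, rose (log2 fold change 0.93, adjusted p = 0.00602), and without Dox replicate 2 its adjusted p was 0.0506. Pcsk6, a proprotein convertase, fell (-0.74, 0.0308), and leaving out any library ended that call (0.0810 to 0.143). With no filter neither passed (adjusted p = 0.0615 for Mmp14 and 0.130 for Pcsk6 in limma).

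Markers of several cell types moved in the same comparison, and their part in the cadherin values was not tested. No marker list is matched to a single cadherin here. Of 6 retinal progenitor markers, 5 were higher (among them Rax, Six6, Lhx2 and Six3) and 0 lower, Pax6 overlapped between the groups, and the summed level of the list was 163.32 and 151.07 FPKM without Dox and 790.22 and 917.92 FPKM with it. Of 4 pigment epithelium markers, 3 were tested and all 3 (Pmel, Dct and Mitf) were higher, with sums of 2.22 and 2.31 FPKM against 60.59 and 61.23 FPKM, though Tyr was listed at 0 without Dox and at no more than 0.11 FPKM with it. Of the named genes, Rax, Six6, Dct and Mitf averaged below 1 FPKM without Dox and entered the test only through the Dox libraries. With no filter these genes were also higher (adjusted p 0.00786 to 0.0120 in limma). The 5 mesenchyme markers gave 2 higher and 0 lower, with sums of 13.23 and 11.74 FPKM against 24.65 and 22.2 FPKM. Of these, Col1a2 rose from 2.46 and 1.93 to 12.21 and 12.02 FPKM and Pdgfra from 1.0 and 1.2 to 2.82 and 2.74 FPKM, while Prrx1 (3.49 and 3.23 against 2.4 and 1.62 FPKM) and Col3a1 did not pass. The call of Pdgfra was lost without untreated replicate 1, Dox replicate 1 or Dox replicate 2 (adjusted p 0.0688 to 0.0835 in limma) and with no filter (0.0707).

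Markers of neurons, neural crest and telencephalic or dorsal progenitors mostly fell. Of 6 neuron markers, 5 were tested and all 5 were lower (Tubb3, Stmn2, Elavl3, Elavl4 and Map2), with sums of 149.12 and 146.55 FPKM without Dox and 82.07 and 85.9 FPKM with it. Of 5 neural crest markers, 4 were lower (Sox10, Foxd3, Tfap2b and Ets1) and 0 higher, with sums of 33.21 and 31.76 against 6.95 and 5.63 FPKM. Ets1 lost its call without any of the 4 libraries (adjusted p 0.0600 to 0.124 in limma) and with no filter (0.128). Elavl3 lost its call without Dox replicate 1 (0.0580) or 2 (0.0537), and Tubb3 without untreated replicate 1 (0.0555). Sox10 fell from 12.79 and 13.35 FPKM to 0.82 and 0.43 FPKM. Sox10, Foxd3, Tfap2b, Elavl3 and Elavl4 averaged below 1 FPKM with Dox and entered the test only through the untreated libraries. With no filter these genes were also lower (adjusted p 0.0184 to 0.0425 in limma). Of 5 markers of telencephalic or dorsal progenitors, 4 were lower (Zic1, Wnt8b, Fabp7 and Emx2) and 1 was higher, with sums of 310.1 and 303.69 against 37.0 and 33.92 FPKM. None of the 4 tested surface epithelium markers passed (sums of 55.14 and 50.05 against 58.88 and 51.56 FPKM), and Trp63 was at 0.02 FPKM or less. Of 4 endothelium markers only Kdr was tested, and it entered only through the Dox libraries. Kdr rose from 0.22 and 0.25 to 13.91 and 17.63 FPKM. Cdh5, the cadherin that defines that cell type, had 0.05 and 0.01 FPKM without Dox and 0.43 and 0.61 FPKM with it. Cdh5 was too low to be tested, and with no filter its rise did not pass (adjusted p = 0.0705 in limma). The summed endothelium markers were 0.92 and 0.87 against 15.16 and 19.41 FPKM, and most of the sum with Dox was Kdr alone. Pecam1 overlapped between the groups (0.63 and 0.53 against 0.62 and 0.89 FPKM). The 4 pluripotent cell markers gave 0 calls, with sums of 63.89 and 66.77 against 70.21 and 47.9 FPKM.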

How the data were processed

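The authors deposited 1 FPKM value per gene (fragments per kilobase of transcript and by library depth), rounded to 2 decimals, 1 column per library. Per the submitters' processing notes, STAR, Cuffdiff and the build mm10 were used, while versions, annotation and strand setting are not given in the sources used here. Columns were tied to samples by the library name in the labels. FPKM is no count, so log2(FPKM + 1) was fitted across every gene whose 4 libraries averaged 1 FPKM or more (limma 3.58.1 in R 4.3.3, eBayes with trend, no covariate, two-sided, Benjamini-Hochberg over 13931 genes, threshold 0.05). This scale understates changes of low genes. The code was tested on simulated data. Members and lists were chosen with earlier results of these data known. All 9 members are named, with up to 3 called genes per list (the largest absolute fold changes), the 3 genes nearest to the called members with the highest and lowest fold change, Mettl3 and Rax; other marker genes, Pcdh19, Cdh1, Cdh19, Cdh24, Ctnnb1, Ctnna1, Ctnnd1, Nectin2, Snai2, Twist1, Prrx1, Col3a1, Tyr, Trp63 and Cdh5 were named after their values were seen. Values of some single marker genes are not reported here. Depth was fitted from steps of low values in single-transcript genes of GENCODE M21 (Python 3.11.15); 87.2% to 88.1% came within 0.15 of whole fragments, against 30% by chance. Fragment numbers are estimates from this fit. Gene positions are from GENCODE M21 (GRCm38, the assembly of mm10). Exon overlaps are not limited to the genes flagged above. Exons of Rax, Six6, Six3, Pmel, Fgf15, Zic1, Emx2 and Map2 also overlap genes on the opposite strand. Those of Elavl3, Pcsk6, Foxd3 and Pdgfra overlap genes on the same strand. Alternatives were other pseudocounts (0.1 and 5), filters (none, 5 FPKM), scalings (TPM, median centring, quantile), eBayes settings, the replicate number as a block and each library left out.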

Additional observations from a re-analysis of the deposited data

How the results depend on the processing

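Across 14 alternative fits, Cdh4, Cdh6, Cdh8, Cdh11 (14 fits each) and Cdh20 (13 fits) kept their direction and their call, while Cdh3 kept its call in 10 of 13 and Cdh13 in 9 of 13, and no tested member changed sign. With no filter 3 members were called higher, and 336 genes higher and 409 lower over all genes. With a minimum of 5 FPKM, where fewer members are tested, 2 members were higher, and 408 and 413 genes over all. Leaving out 1 library gave 3 to 5 members higher, and 262 to 320 genes higher and 331 to 377 lower (main 619 and 678); the group left with 1 library is assumed to vary like the other. With a pseudocount of 0.1 the untested Cdh7 difference was -1.13, and with 5 it was -0.19. The Dox-minus-untreated difference of the summed FPKM was 144.4, 178.9 after rescaling to TPM and 175.0 without Cdh2. Without Cdh2 in the sum, the share differences of Cdh3 and Cdh13 turned to -0.15 and -0.82 percentage points, by construction of the smaller total. With the replicate number as a block (replicate block), Cdh11 had an adjusted p of 1.48e-05 and Cdh2 of 0.107 in limma, 532 genes were called higher and 602 lower, and no member's call changed. Whether numbers mark shared origin is not known, and same-numbered libraries did not deviate together (correlation -0.043 across genes).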
